A study of Mus musculus with 6 samples.

Results

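The mGluR6 cascade of ON bipolar cells was followed as 10 genes, chosen by name: Grm6, Trpm1, Gpr179, Nyx, Lrit3, Rgs7, Rgs11, Gnao1, Gnb3 and Pcp2. All 10 were among the 32285 genes counted. Their UMIs (unique molecular identifiers, 1 per captured RNA molecule) were added up within each library across rod bipolar, ON cone bipolar and OFF bipolar nuclei and the nuclei of the other marker-defined retinal cell types, and the sums were compared between treatments.

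Single-nucleus RNA sequencing of whole retina was done on rd10 mice (strain B6.CXB1-Pde6b-rd10/J), which carry a mutation of the rod phosphodiesterase gene Pde6b and lose their photoreceptors. Both groups were rd10, so that no retina without degeneration was compared here. At P18, 1 eye received an intravitreal injection of 20 ng recombinant IL-27, a cytokine of the IL-12 family, or sterile PBS (the saline group), and retinas were frozen at P20. The IL-27 group comprised replicates 4, 5 and 10 and the saline group replicates 1, 2 and 6. The labels do not say whether a library held 1 retina or pooled retinas, so the p-values measure the spread between these libraries only.

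ON bipolar cells respond to light with a sign-inverting synapse. In the dark, photoreceptor glutamate activates the receptor mGluR6 (Grm6), whose G protein Go, built from Gnao1, Gnb3 and Gng13, keeps the cation channel TRPM1 closed. Light lowers glutamate and the channel opens. The RGS7 and RGS11 proteins, held at the dendritic tip by GPR179, switch Go off, and the leucine-rich repeat proteins nyctalopin (Nyx) and LRIT3 hold the channel at the synapse. Loss of Grm6, Trpm1, Gpr179, Nyx or Lrit3 causes congenital stationary night blindness. OFF bipolar cells use ionotropic glutamate receptors in place of this cascade.

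The 6 libraries held 36678332 to 48260748 UMIs, and 52241 nuclei were retained, among them 10851 bipolar nuclei. The nuclei retained per library had a median of 2782 to 3788 UMIs, and 1.22% to 1.42% of the barcodes of a library also occurred in another library. Each group held 1 female library, saline replicate 2 and IL-27 replicate 5, as Xist and Y-linked counts showed, and the other libraries were male. No library was left out of the main comparison.

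Nuclei were grouped without using the 10 genes or the 16 partner genes described further on, so that the levels below were not used to form the types. There were 3218 rod bipolar, 3059 ON cone bipolar and 3047 OFF bipolar nuclei. The types were named by the marker lists summed here, so the sums describe the naming and are no separate evidence for it. The summed CPM (UMIs of a gene scaled to a common total of UMIs of the type in a library) of the 8 rod bipolar markers was 17810 to 19280 in rod bipolar sums against 513.8 to 778.0 in ON cone bipolar sums. Of the rod bipolar sum, a mean of 15647 CPM was Prkca alone, which is also a partner gene. Likewise the 12 OFF bipolar markers summed to 14680 to 17420 CPM in OFF bipolar sums against 619.9 to 808.3 CPM in ON cone bipolar sums. The 12 ON cone bipolar markers differed less between the types, with 4355 to 5188 CPM in ON cone bipolar sums and 1591 to 2125 CPM in OFF bipolar sums. Outside bipolar nuclei the same list reached 3063 to 3908 CPM in astrocytes and 2739 to 3303 CPM in Müller glia. A further 571 bipolar nuclei, led by Il1rapl2, Hs3st4 and Palld and also high in Igfn1, held too few ON markers to be named and are called the Igfn1 cluster. Bipolar sub-clusters with 955 nuclei whose leading genes or markers belonged partly to other classes were set aside, by a rule chosen after the clusters were seen.

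The start-site regions of Grm6 and Trpm1 are shown because the receptor and the channel of the cascade were both highest in rod bipolar nuclei, as described below. Each is 300 bases, 250 before and 50 after the RefSeq start (GRCm38.p6), on the plus strand of chr11:50850435-50850734 and chr7:64153585-64153884. Capitals mark TAATC or its reverse complement GATTA, letters that lie within the site known for the homeodomain factors OTX2 and CRX of photoreceptors and bipolar cells.
Grm6: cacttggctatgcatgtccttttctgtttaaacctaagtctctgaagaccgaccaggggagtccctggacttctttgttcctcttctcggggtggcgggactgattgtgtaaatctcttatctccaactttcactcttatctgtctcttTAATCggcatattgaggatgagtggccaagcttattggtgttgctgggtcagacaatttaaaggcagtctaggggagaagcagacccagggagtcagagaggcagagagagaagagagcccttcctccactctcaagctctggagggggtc
Trpm1: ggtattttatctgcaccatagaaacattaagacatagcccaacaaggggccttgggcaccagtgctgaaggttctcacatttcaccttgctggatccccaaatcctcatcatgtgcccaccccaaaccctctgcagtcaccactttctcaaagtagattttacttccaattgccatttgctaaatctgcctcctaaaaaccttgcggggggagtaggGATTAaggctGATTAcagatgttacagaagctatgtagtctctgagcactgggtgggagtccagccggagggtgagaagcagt
The match in Grm6 began 101 bases upstream of the start, and those in Trpm1 33 and 23 bases upstream. Windows were found for 8 of the 10 genes, 12 windows in all. TAATC or GATTA was present in 5 of the 12 windows, those of Grm6, Lrit3, Pcp2 and Trpm1, and in 22% of all 32851 windows. The longer TAATCC or GGATTA, which overlaps it, was present in 1 of the 12 windows, that of Trpm1 shown above, and in 7.06% of all windows. A match is a run of letters and not evidence of binding.

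The levels across cell types are described first, as mean CPM ± SD over the 6 libraries. Of the 10 genes, 8 were highest in rod bipolar or ON cone bipolar nuclei among the 13 named cell types, and Gnb3 and Lrit3 were highest in cones. Because nuclei were counted at the 3′ end, levels are compared between cell types for 1 gene at a time and not between genes.

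**Figure D1:**
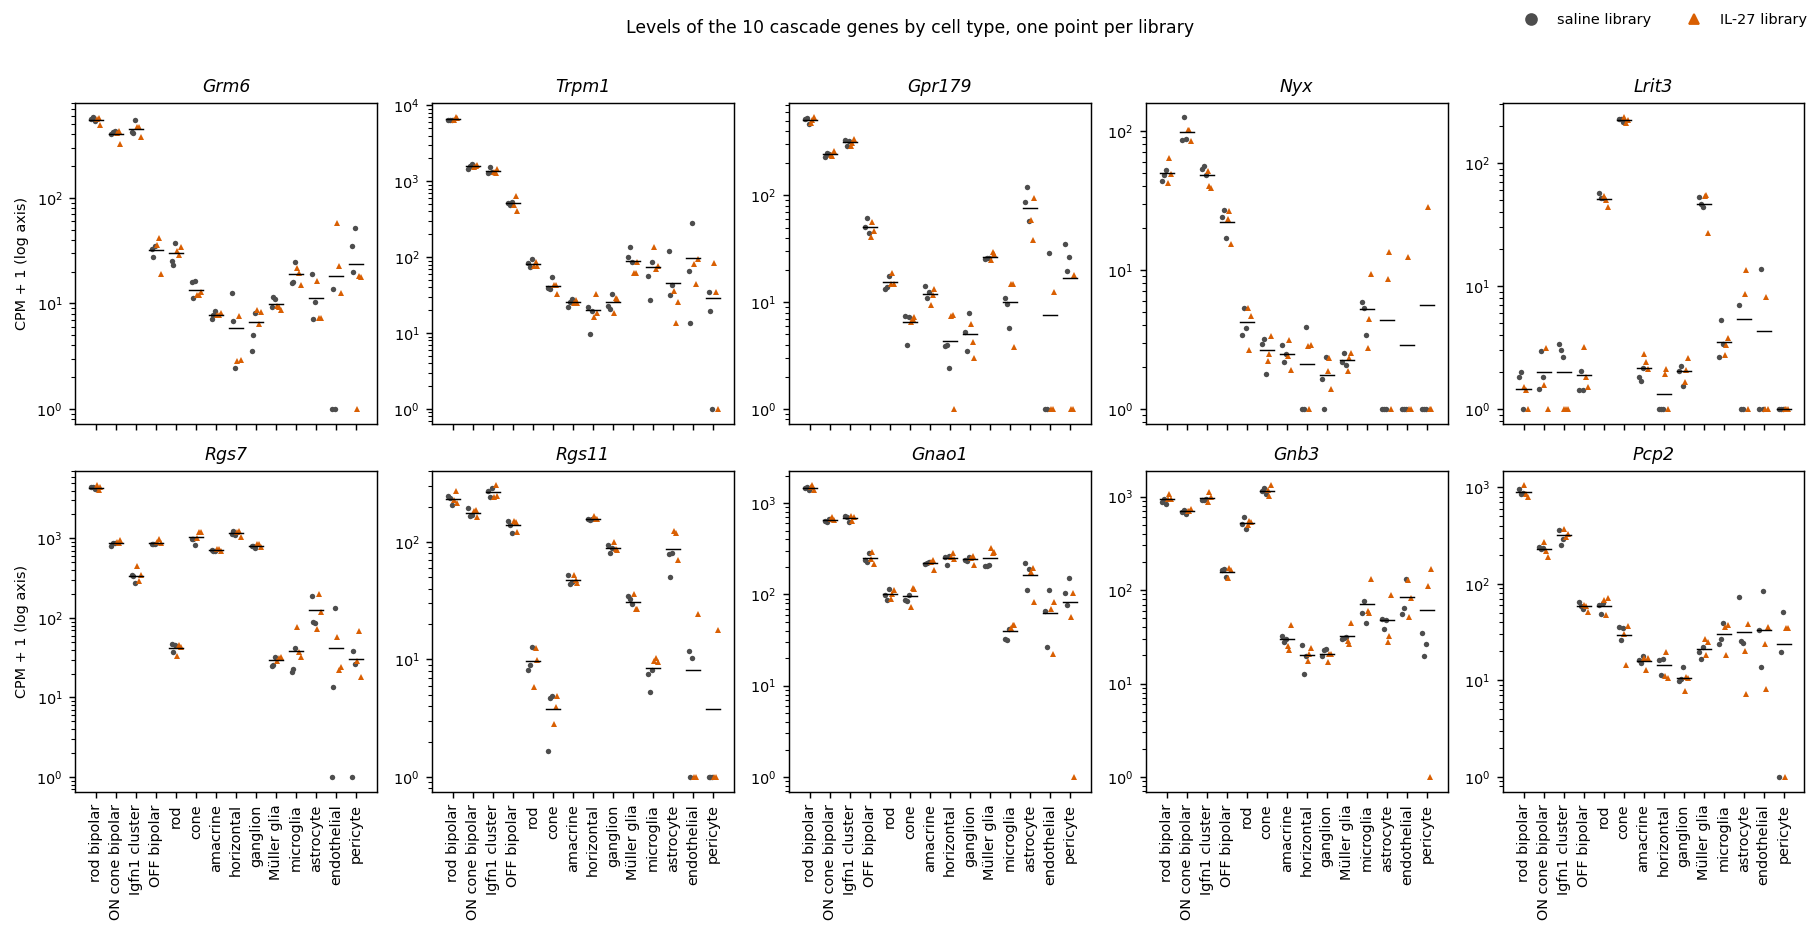
Level of each of the 10 genes by cell type, as CPM + 1 on a log axis, with 1 point per library (circles for saline, triangles for IL-27) and a line at the mean. Trpm1 lies between 6323 and 6976 CPM in rod bipolar nuclei and between 1452 and 1666 CPM in ON cone bipolar nuclei, and Lrit3 is highest in cones, at 211.1 to 234.1 CPM.

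Grm6, the glutamate receptor that defines the ON response (ENSMUSG00000000617, chr11:50850685-50866208, plus strand), was at 551 ± 34.1 CPM in rod bipolar nuclei and 402 ± 40.3 CPM in ON cone bipolar nuclei. The libraries of the 2 types did not overlap, with 489.0 CPM as the lowest rod bipolar and 426.2 CPM as the highest ON cone bipolar value. The Igfn1 cluster, at 450 ± 58.8 CPM, overlapped with both. OFF bipolar nuclei held 30.9 ± 7.82 CPM, 17.8-fold below rod bipolar nuclei, which overlapped with the 29.1 ± 5.45 CPM of rods. Gm12660, a gene on the opposite strand, overlaps Grm6 and was counted separately, at 252 CPM in rod bipolar nuclei. The use of strand in counting is not given in the sources used here. How far reads of either gene were counted for the other was not tested.

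Trpm1, the channel that carries the light response (ENSMUSG00000030523, chr7:64153835-64269775, plus strand), was at 6602 ± 269 CPM in rod bipolar nuclei, 4.22-fold above the 1566 ± 75.3 CPM of ON cone bipolar nuclei. The Igfn1 cluster held 1366 ± 103 CPM. OFF bipolar nuclei held 512 ± 75.4 CPM, below both ON types in all 6 libraries and above the 18.8 ± 7.56 CPM of horizontal cells, so that the 4 bipolar groups fell into 3 ranges without overlap. The horizontal cell level depended on the processing, with 111 ± 53.8 CPM when doublets were kept and 5.59 ± 6.26 CPM when nuclei were thinned to 1000 UMIs, against 565 ± 62.2 and 445 ± 43.5 CPM in OFF bipolar nuclei under the same settings.

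Gpr179, the orphan receptor that anchors the RGS proteins (ENSMUSG00000070337, chr11:97332109-97352077, minus strand), was at 504 ± 30.6 CPM in rod bipolar, 314 ± 21.1 CPM in Igfn1 cluster and 242 ± 10.2 CPM in ON cone bipolar nuclei, in that order and without overlap. Outside these types the highest mean was that of astrocytes, 74.6 ± 29.5 CPM from 81 UMIs, which overlapped with OFF bipolar nuclei at 49.1 ± 7.93 CPM. Müller glia held 25.7 ± 1.96 CPM.

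The synaptic leucine-rich repeat proteins departed from this order. Nyx (ENSMUSG00000051228, chrX:13466110-13489313, plus strand) was higher in ON cone bipolar than in rod bipolar nuclei, at 96.9 ± 15.7 against 48.9 ± 7.79 CPM, with no overlap between the libraries, an order without overlap that no other member showed. The Igfn1 cluster, at 46.9 CPM, overlapped with rod bipolar nuclei, and OFF bipolar nuclei held 21.2 ± 4.96 CPM. Lrit3 (ENSMUSG00000093865, chr3:129787881-129804030, minus strand) was near the limit of detection in bipolar nuclei, with 6 UMIs in all 6 rod bipolar sums, 13 in ON cone bipolar sums and 11 in OFF bipolar sums, or 0.454, 0.991 and 0.901 CPM, where 3 UMIs over all libraries correspond to 0.230, 0.236 and 0.232 CPM. Cones held 222 ± 8.70 CPM of Lrit3 from 1878 UMIs, rods 50.1 ± 4.27 CPM and Müller glia 45.3 ± 10.4 CPM. The cone libraries ranged from 211.1 to 234.1 CPM and lay above all others, whereas rods and Müller glia overlapped.

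Both regulators of G protein signalling were widely present. Rgs7 (ENSMUSG00000026527, chr1:175059087-175492500, minus strand) was at 4355 ± 217 CPM in rod bipolar nuclei, and the next type, horizontal cells, was 3.75-fold below it at 1161 ± 81.8 CPM. Cones held 1036 ± 148 CPM, OFF bipolar nuclei 884 ± 47.2 CPM, ON cone bipolar nuclei 878 ± 46.0 CPM and ganglion cells 801 ± 40.2 CPM, each overlapping with its neighbour in this order, so that ON cone and OFF bipolar nuclei were not separated by Rgs7. Rgs11 (ENSMUSG00000024186, chr17:26202951-26211324, plus strand) was highest in the Igfn1 cluster, at 264 ± 25.9 CPM, which overlapped with the 232 ± 22.9 CPM of rod bipolar nuclei although it was higher in each of the 6 libraries. Its level was 176 ± 12.6 CPM in ON cone bipolar, 156 ± 4.32 CPM in horizontal and 138 ± 14.8 CPM in OFF bipolar nuclei. It overlaps Arhgdig on the opposite strand.

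Of the Go subunits, Gnao1 (ENSMUSG00000031748, chr8:93809966-93969388, plus strand) was at 1467 ± 64.8 CPM in rod bipolar and 660 ± 29.0 CPM in ON cone bipolar nuclei, with no overlap, and at 250 ± 30.3 CPM in OFF bipolar nuclei, which overlapped with horizontal cells and Müller glia. It overlaps 4930488L21Rik on the opposite strand. Gnb3 (ENSMUSG00000023439, chr6:124834240-124840275, minus strand), the beta subunit shared with cone transducin, was at 1158 ± 111 CPM in cones, 963 ± 88.7 CPM in the Igfn1 cluster, 932 ± 78.0 CPM in rod bipolar, 700 ± 29.5 CPM in ON cone bipolar, 521 ± 53.0 CPM in rod and 155 ± 16 CPM in OFF bipolar nuclei. Pcp2 (ENSMUSG00000004630, chr8:3623371-3625545, minus strand), a GoLoco protein that binds Go, was at 893 ± 94.4 CPM in rod bipolar nuclei, 3.88-fold above the 230 ± 27.1 CPM of ON cone bipolar nuclei and 15.6-fold above the 57.3 ± 4.75 CPM of OFF bipolar nuclei. The last overlapped with rods, and Pcp2 overlaps Pet100 on the opposite strand.

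The share of nuclei with at least 1 UMI gave the same contrast. Over all libraries, 86.7% of rod bipolar nuclei held a Grm6 UMI at a median of 4089 UMIs per nucleus, against 4.39% of horizontal cells, which lack the ON cascade, at a median of 10036.5 UMIs. With every nucleus thinned to 1000 UMIs, which left out no nucleus of these types, the shares were 42.4% (exact binomial 95% interval 40.6% to 44.1%) and 0.628% (0.130% to 1.82%). Thinned Trpm1 shares were 99.6% in rod bipolar, 63.7% in ON cone bipolar, 29.8% in OFF bipolar and 0.628% in horizontal nuclei. In OFF bipolar nuclei the Trpm1 interval of 28.2% to 31.6% lay above the horizontal cell interval of 0.130% to 1.82%, whereas the Grm6 share there, 2.05% (1.56% to 2.64%), overlapped with that of horizontal cells. The intervals cover counting error only.

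Within ON cone bipolar nuclei the cascade was not uniform. Among 6 sub-clusters, formed without the members, Gpr179 varied least, from 193 to 286 CPM, and Nyx varied by a ratio of 2.64. Grm6 ranged over a ratio of 27, from 645 CPM in the sub-cluster led by Reln and Cdh18 to 23.9 CPM in the sub-cluster led by Kirrel3 and Meis2. The single libraries ran from 475.8 to 705.4 CPM in the first and from 12.33 to 35.45 CPM in the second, so that the second lay near the 30.9 CPM of OFF bipolar nuclei. The same Kirrel3 sub-cluster held the highest Rgs7, 2765 CPM, and the lowest Rgs11 and Gnb3, 40.8 and 244 CPM, while its Gpr179 was at 251 CPM and its Trpm1 at 709.8 CPM. Its leading genes included Kirrel3 and Nfia of the ON cone bipolar list, and also Meis2 of the amacrine list. Its Grm6 and Rgs11 lay below the OFF bipolar means, and its Gpr179, Trpm1, Rgs7 and Gnb3 above them. Whether this sub-cluster is an ON type was not tested.

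Trpm1 and Pcp2 were lowest in other sub-clusters. Trpm1 ranged from 3158 CPM in the Reln sub-cluster to 119.9 CPM in the sub-cluster led by Adarb2, Cntn5 and Cngb3, a ratio of 26.3, with libraries from 71.17 to 278.6 CPM in the latter. That sub-cluster still held 174.4 CPM of Grm6 and the highest Gnb3 of the 6, 943 CPM. Pcp2 was highest in the sub-cluster led by Csmd1, at 598 CPM, and lowest in the Reln sub-cluster, at 33.3 CPM, a ratio of 17.9. The Csmd1 sub-cluster held the lowest Rgs7, 184 CPM. For each of the 9 detected genes, the highest and the lowest sub-cluster were picked by their values, so these ratios are a description without a test. OFF bipolar sub-clusters differed as well, with Trpm1 from 224.1 to 928.1 CPM and Rgs11 from 14.97 to 240.5 CPM, likewise picked by their values.

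**Figure D2:**
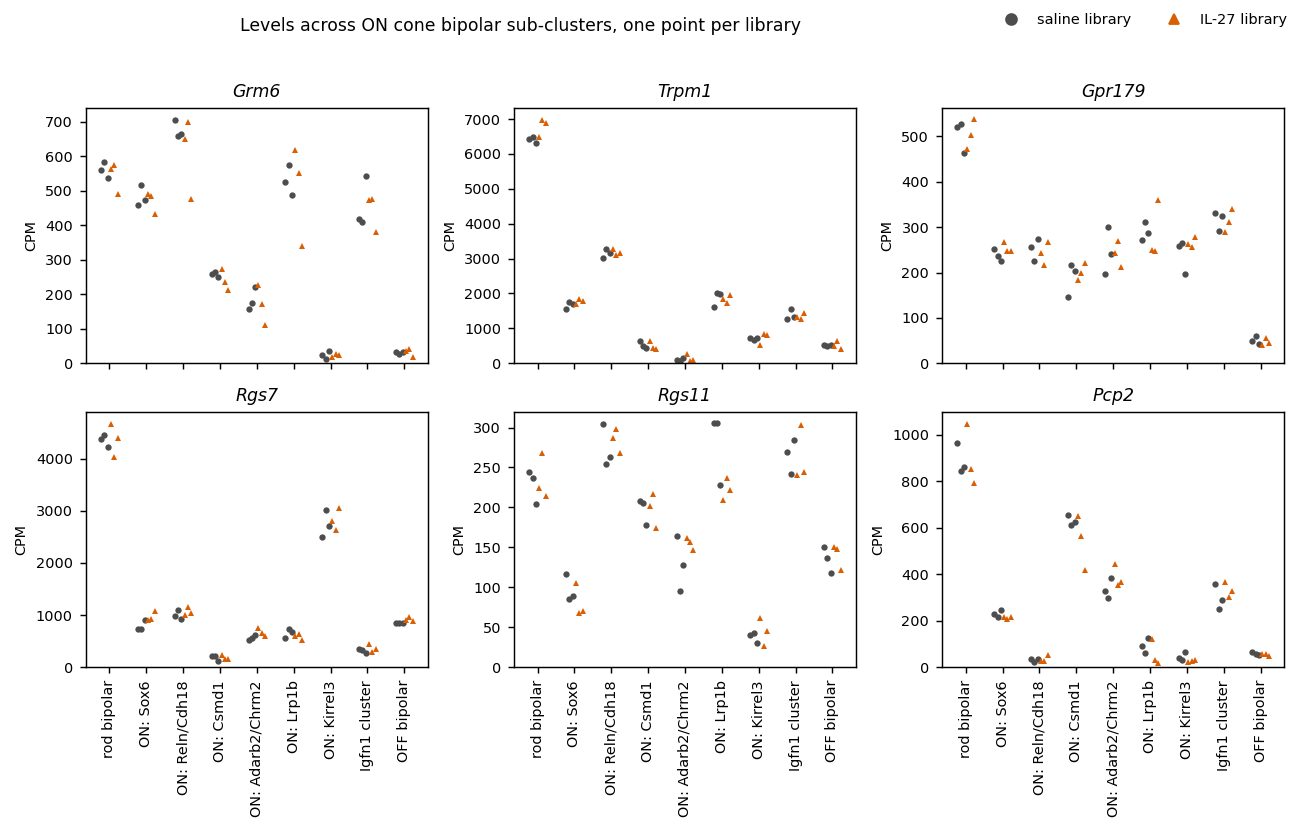
CPM of Grm6, Trpm1, Gpr179, Rgs7, Rgs11 and Pcp2 in the 6 ON cone bipolar sub-clusters, named by leading genes, beside rod bipolar, Igfn1 cluster and OFF bipolar nuclei, with 1 point per library (circles for saline, triangles for IL-27). Grm6 falls to 23.9 CPM in the Kirrel3 sub-cluster and Trpm1 to 119.9 CPM in the Adarb2 sub-cluster, whereas Gpr179 stays between 193 and 286 CPM in all 6 ON cone bipolar sub-clusters.

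Rod bipolar nuclei were divided in the same way. In the 3 largest rod bipolar sub-clusters Grm6 lay between 514.9 and 578.4 CPM, Trpm1 between 6535 and 6761 CPM, Gpr179 between 499.5 and 515.4 CPM and Rgs7 between 3631 and 4454 CPM. The largest 2 of these separated male from female libraries, with Xist among the leading genes of the second, and the third, with 156 nuclei, had the interferon-response genes Rsad2 and Rnf213 among its leading genes and held 514.9 CPM of Grm6 and 6631 CPM of Trpm1. The fourth sub-cluster had 45 nuclei at a median of 8953 UMIs, of which 22 entered the sums, too few for a value per library. Pooled over libraries they held 703.6 CPM of Grm6, 4676 CPM of Trpm1, 329.8 CPM of Gpr179 and 2441 CPM of Rgs7.

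Outside both gene lists, the genes whose level across the 14 cell groups was most like the mean profile of Grm6, Trpm1, Gpr179 and Nyx (Pearson r of log2 CPM, 12818 genes) were Gm12660 with r = 0.948, B3galt2 with r = 0.938, Gm20754 with r = 0.930, Gm9195 with r = 0.928 and Chtf18 with r = 0.926. Gm12660 overlaps Grm6, and Chtf18 overlaps Gng13, on the opposite strand. Gm20754 ran from 3860 CPM in rod bipolar nuclei to 1023 CPM in ON cone bipolar and 1200 CPM in OFF bipolar nuclei. B3galt2, a galactosyltransferase, was at 364 CPM in rod bipolar, 290 CPM in ON cone bipolar and 230 CPM in OFF bipolar nuclei. The cell groups share libraries, so the r values are a description of these 14 points.

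The effect of IL-27 on the cascade was then compared. In rod bipolar nuclei, 9 of the 10 genes passed the filter on low counts, all but Lrit3, and none of the 9 passed an adjusted p of 0.05 in edgeR (quasi-likelihood test, Benjamini-Hochberg adjustment over 11163 genes). The background was also 0% called, 0 of all genes tested. At an unadjusted p under 0.05 the count was 0 of 9 members in edgeR and in DESeq2, against 3.78% of all genes in edgeR. The log2 fold changes of IL-27 over saline ran from -0.03 for Grm6 to 0.16 for Gnb3, with a median of 0.06 beside 0.0016 over all genes, and 8 of the 9 were above 0.

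Grm6 in rod bipolar nuclei was at 561.3, 581.8 and 537.8 CPM in saline replicates 1, 2 and 6 and at 562.7, 575.3 and 489.0 CPM in IL-27 replicates 4, 5 and 10 (log2 fold change -0.03, SE 0.09, 95% interval -0.22 to 0.16). The groups overlapped, and IL-27 replicate 10 was the lowest. Trpm1 was at 6429, 6498 and 6323 CPM in saline and at 6487, 6976 and 6900 CPM in IL-27 (log2 fold change 0.10, SE 0.07, interval -0.04 to 0.24). The highest 2 values were those of IL-27 replicates 5 and 10, and replicate 4 lay below saline replicate 2. Gpr179 was at 520.2, 527.7 and 462.5 CPM in saline and at 472.6, 504.0 and 538.0 CPM in IL-27, and its log2 fold change was 0.02 (SE 0.09, interval -0.16 to 0.20). Nyx was the member measured least precisely, with 42.68, 47.17 and 51.35 CPM in saline and 41.55, 63.05 and 47.88 CPM in IL-27, a log2 fold change of 0.14 and an interval from -0.20 to 0.48.

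Among the regulators and subunits, Gnb3 had the smallest p of the members in rod bipolar nuclei, 0.0777 before and 0.9998 after edgeR's adjustment. It was at 883.8, 950.8 and 822.8 CPM in saline and at 947.7, 1057 and 931.9 CPM in IL-27 (log2 fold change 0.16, SE 0.09, interval -0.02 to 0.34). The groups overlapped through saline replicate 2. Rgs7 was at 4370, 4446 and 4225 CPM in saline and at 4667, 4022 and 4401 CPM in IL-27, where both extremes were IL-27 libraries. Rgs11 was at 244.8, 236.8 and 204.2 CPM in saline and at 224.8, 267.9 and 214.3 CPM in IL-27. Gnao1 was at 1446, 1489 and 1395 CPM in saline and at 1496, 1569 and 1407 CPM in IL-27. Pcp2 was at 963.5, 844.2 and 860.4 CPM in saline and at 1048, 852.8 and 791.1 CPM in IL-27. The last 4 genes overlapped between groups, with log2 fold changes between 0.02 for Rgs7 and 0.06 for Rgs11 and for Gnao1. The widest interval of any tested member in these nuclei allowed a change of up to 1.39-fold, and Lrit3, with 6 UMIs, could not be tested.

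**Figure D3:**
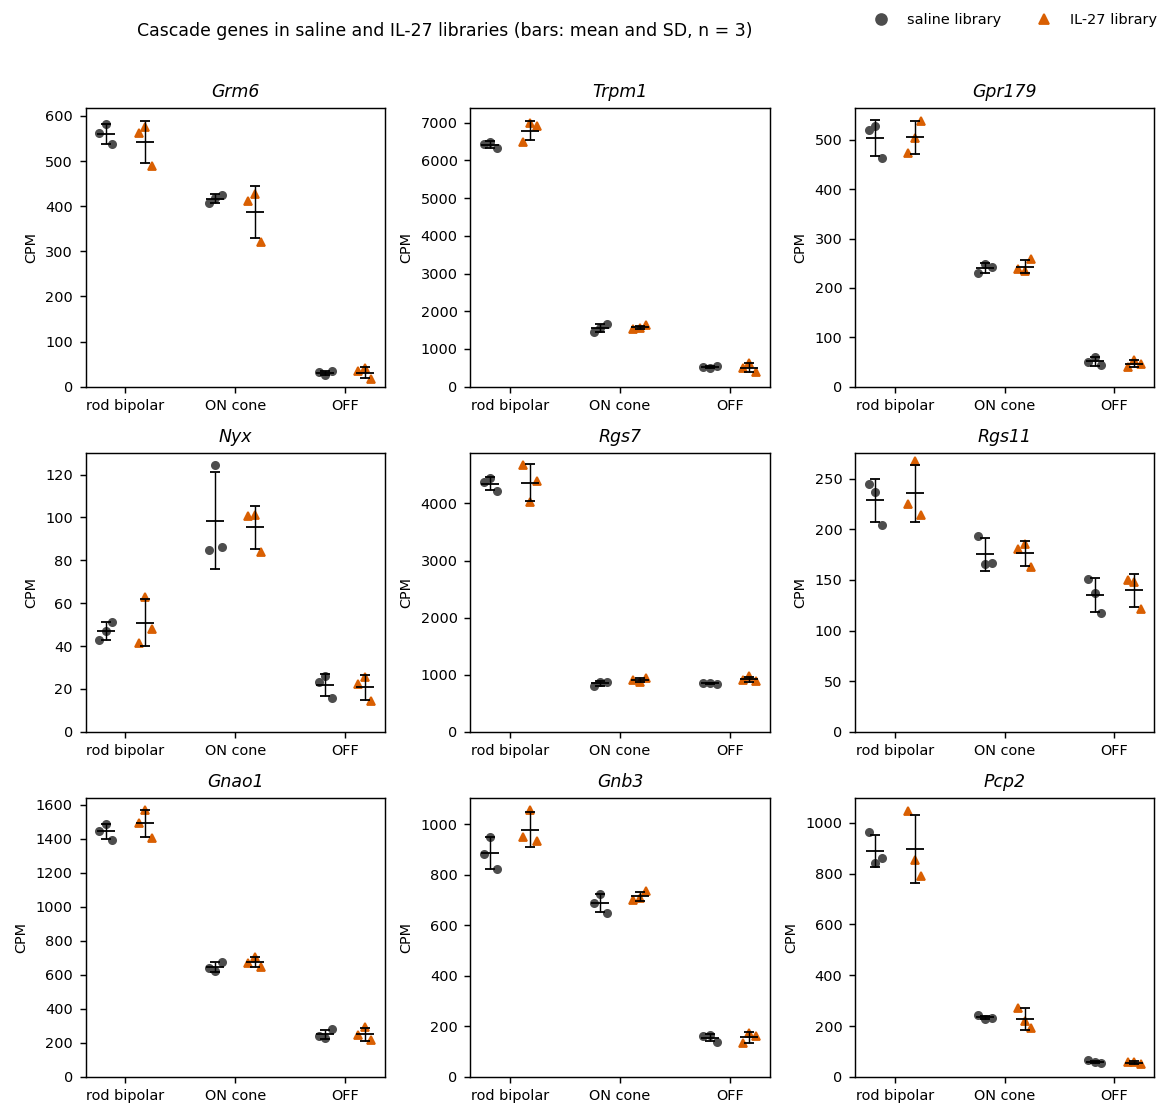
CPM of the 9 tested members in rod bipolar, ON cone bipolar and OFF bipolar nuclei, with 1 point for each of the 3 saline (circles) and 3 IL-27 (triangles) libraries and bars for the mean and SD. The groups overlap for each of the 9 tested genes in rod bipolar and ON cone bipolar nuclei, and Rgs7 in OFF bipolar nuclei is separated, at 841.1 to 857.0 CPM in saline and 883.1 to 969.2 CPM in IL-27.

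In ON cone bipolar nuclei, 0 of 9 members passed the threshold in edgeR, beside 0% of all 11846 genes, and at an unadjusted p under 0.05 the count was 0 in edgeR and in DESeq2, against 3.96% of all genes in edgeR. The log2 fold changes ran from -0.09 to 0.11 with a median of 0.03, beside 0.0031 over all genes, and 6 of 9 were above 0. Grm6 was at 407.0, 418.7 and 425.6 CPM in saline and at 412.4, 426.2 and 320.9 CPM in IL-27 (log2 fold change -0.09, SE 0.10, interval -0.30 to 0.13). As in rod bipolar nuclei, IL-27 replicate 10 was the lowest, and the other IL-27 libraries lay within or just above the saline range. Trpm1 was at 1452, 1568 and 1666 CPM in saline and at 1521, 1568 and 1623 CPM in IL-27, so that the IL-27 libraries lay inside the saline range.

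Nyx was at 84.67, 124.5 and 86.11 CPM in saline and at 100.8, 101.3 and 83.92 CPM in IL-27 (log2 fold change -0.02, SE 0.14). Rgs7 had the smallest p of the members, 0.161, with 801.3, 879.1 and 870.6 CPM in saline and 899.1, 875.9 and 942.7 CPM in IL-27 (log2 fold change 0.11, SE 0.08, interval -0.05 to 0.27). The groups overlapped between saline replicate 2 and IL-27 replicate 5. Gpr179, Rgs11, Gnao1, Gnb3 and Pcp2 had log2 fold changes between -0.02 and 0.08. No interval reached beyond a 1.25-fold change.

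In OFF bipolar nuclei, 0 of 9 members passed the threshold in edgeR, beside 0.00842% of all genes, which was 1 of 11880, Prss56, a serine protease gene (log2 fold change 4.42, SE 0.66, edgeR adjusted p = 0.0477). The paper reports Prss56 as strongly raised by IL-27 in Müller glia. The 8 Müller glia markers summed to 336.4 to 497.4 CPM in OFF bipolar sums, and the part of Müller RNA in the Prss56 call was not tested. At an unadjusted p under 0.05 the count was 0 of 9 members in edgeR and in DESeq2, against 3.75% of all genes in edgeR. Rgs7 was at 857.0, 852.6 and 841.1 CPM in saline and at 901.6, 969.2 and 883.1 CPM in IL-27, higher in all 3 IL-27 libraries (log2 fold change 0.14, SE 0.07, interval -0.02 to 0.29, edgeR adjusted p = 0.998). The members other than Rgs7 overlapped between the groups, and the intervals of the 9 genes allowed a change of up to 1.43-fold.

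Counted without a test, 0 of 9 members did not overlap between saline and IL-27 libraries in rod bipolar nuclei and 0 of 9 in ON cone bipolar nuclei, beside 9.42% and 9.22% of all tested genes. In OFF bipolar nuclei it was 1 of 9, or 11.1%, beside 9.42%, and that 1 was Rgs7.

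**Figure D4:**
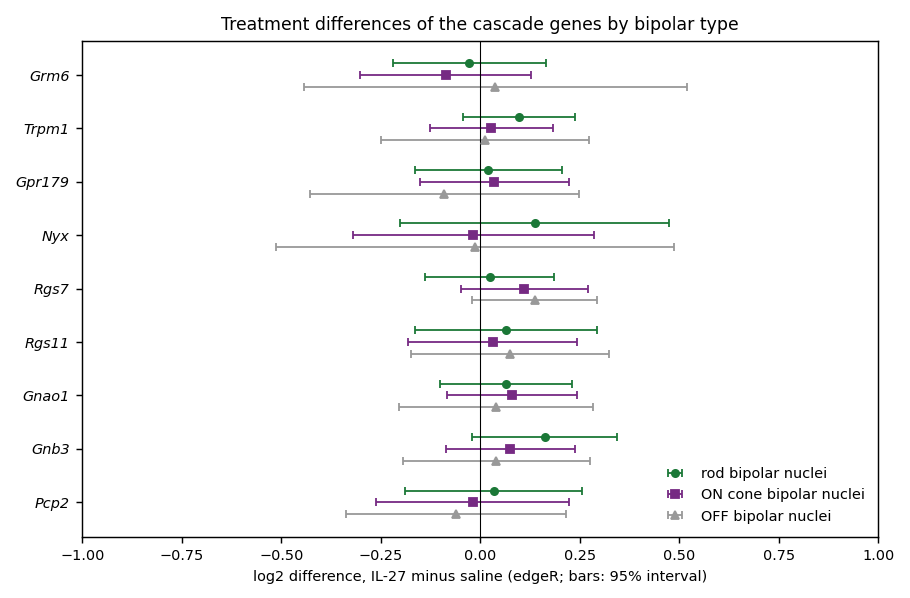
Log2 fold change of IL-27 over saline for each tested member in rod bipolar, ON cone bipolar and OFF bipolar nuclei, with 95% intervals from edgeR. Every interval includes 0, and those of Nyx are wide, reaching from -0.20 to 0.48 in rod bipolar nuclei.

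The treatment difference was compared directly between rod bipolar and ON cone bipolar nuclei with an interaction term, the library being a block. The differences, rod bipolar minus ON cone bipolar, ran from -0.08 for Rgs7 (interval -0.26 to 0.09) to 0.15 for Nyx (interval -0.19 to 0.49). None of the 9 passed the threshold in edgeR, beside 0.0321% of all genes, which was 4 of 12453, and the smallest unadjusted p of a member was 0.267. Other tools were not run for this comparison.

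The share of rod bipolar nuclei among bipolar nuclei was compared with the levels. The share was 29.9 ± 2.60% (SD, n = 3) in saline and 29.6 ± 2.43% (SD, n = 3) in IL-27, which differed by -0.32 percentage points (exact permutation test, two-sided, p = 0.7). With 3 against 3 libraries the smallest p this test can give is 0.1. The saline libraries held 32.34%, 30.20% and 27.16% and the IL-27 libraries 31.95%, 29.70% and 27.10%. The total of bipolar nuclei included the Igfn1 cluster and the mixed sub-clusters that were set aside. The latter made up 12.99% of it in saline replicate 6 and 7.01% to 8.93% in the other libraries.

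The partner list held 16 further genes of this synapse, among them Gng13, Gnb5, Rgs7bp, Rgs9bp, Lrit1, Lrit2, Elfn1, Elfn2, Egflam, Dag1, Cacna1f, Cacna2d4, Cabp4, Prkca and Tpbg. Gng13, the gamma subunit that pairs with Gnb3 in these cells, was at 88.4 ± 17.3 CPM in rod bipolar, 68.7 ± 12.8 CPM in ON cone bipolar and 28.9 ± 7.25 CPM in OFF bipolar nuclei. Gnb5, the obligate partner of RGS7 and RGS11, was at 165 ± 20.6, 158 ± 28.6 and 75.9 ± 13.4 CPM in the same order and highest in rods, at 717 ± 102 CPM. Elfn1, a photoreceptor protein that recruits mGluR6 across the synapse, was at 153 ± 13.9 CPM in rods and at 1.54, 2.45 and 3.78 CPM in rod, ON cone and OFF bipolar nuclei.

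Under IL-27, 14 of the 16 partners were tested in each bipolar type, and none passed the threshold in edgeR or DESeq2. Of all genes, edgeR called 0%, 0% and 0.00842% in rod bipolar, ON cone bipolar and OFF bipolar nuclei, and DESeq2 called 0 in each type. At an unadjusted p under 0.05 the edgeR and DESeq2 counts of partners were 0 in rod bipolar, 0 in ON cone bipolar and 1 in OFF bipolar nuclei. The edgeR shares of all genes were 3.78%, 3.96% and 3.75%. The median log2 fold change of the partners was -0.01 in rod bipolar, 0.0023 in ON cone bipolar and 0.01 in OFF bipolar nuclei. Gng13 had a log2 fold change of -0.01 (SE 0.16) and Gnb5 of 0.12 (SE 0.11) in rod bipolar nuclei, and -0.05 (SE 0.16) and 0.10 (SE 0.13) in ON cone bipolar nuclei.

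In rod bipolar nuclei, 2 of 14 tested partners did not overlap between the groups, 14.3% beside 9.42% of all genes. Tpbg, a leucine-rich repeat protein of rod bipolar terminals, was at 39.86, 40.29 and 40.84 CPM in saline and at 33.04, 33.05 and 31.92 CPM in IL-27 (log2 fold change -0.28, SE 0.14, edgeR adjusted p = 0.9998). Elfn2 was at 27.78, 36.85 and 36.79 CPM in saline and at 37.05, 45.23 and 43.32 CPM in IL-27 (log2 fold change 0.33, SE 0.16, edgeR adjusted p = 0.9998). In ON cone bipolar nuclei the count was 0 of 14, beside 9.22% of all genes, and in OFF bipolar nuclei 2 of 14, Rgs9bp and Lrit2, or 14.3% beside 9.42%. These 4 genes were named after their values were seen.

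Some summed markers of other cell types did not overlap between treatments in the bipolar sums. In rod bipolar sums the 12 ON cone bipolar markers were at 1054 to 1081 CPM in saline and 1090 to 1264 CPM in IL-27, although 7 of the 12 were higher in saline, and the 8 microglia markers at 97.29 to 118.4 and 118.5 to 130.9 CPM, with 1 of the 8 higher in saline. In ON cone bipolar sums the 9 cone markers were at 480.1 to 500.1 CPM in saline and 502.1 to 540.2 CPM in IL-27, with 4 of the 9 higher in saline, and the 8 ganglion cell markers at 61.30 to 63.95 and 42.75 to 47.88 CPM, with 7 of the 8 higher in saline. In OFF bipolar sums the 7 horizontal cell markers were at 124.5 to 131.8 CPM in saline and 101.7 to 118.3 CPM in IL-27, the 5 astrocyte markers at 18.25 to 18.44 and 15.10 to 17.82 CPM and the 7 pericyte markers at 8.985 to 12.99 and 13.47 to 14.36 CPM, and 5 of the 7, 3 of the 5 and 2 of the 7 were higher in saline. The 8 rod markers overlapped between treatments, but in each bipolar type IL-27 replicate 5 was lowest and IL-27 replicate 10 highest. In rod bipolar sums these were at 192.2 and 578.5 CPM. Every marker of the lists named here had UMIs in these sums. Their part in the values above was not tested.

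In the other 10 cell types, 59 pairs of a member and a type were tested and 0 passed the threshold in edgeR, beside 0.00769% of 90982 gene and type pairs, which was 7. The 59 pairs came from 8 types, as no member was tested in endothelial or pericyte nuclei, which the background includes. At an unadjusted edgeR p under 0.05 the count was 5, or 8.47%, beside 4.28% of all pairs. DESeq2 called 1, Gnao1 in Müller glia, where it called 0.622% of 13988 genes. Of the partners, 0 of 97 pairs passed and 7, or 7.22%, had an unadjusted p under 0.05, beside the same 4.28%.

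Müller glia, the radial glia of the retina, held the smallest p. Gnao1 was at 204.2, 204.4 and 211.0 CPM in saline and at 321.0, 279.8 and 291.0 CPM in IL-27, higher in all 3 IL-27 libraries (log2 fold change 0.55, SE 0.10, interval 0.32 to 0.78, edgeR adjusted p = 0.149). It passed the threshold in DESeq2 (adjusted p = 0.00507), in edgeR without a filter on low counts (adjusted p = 0.0280) and in edgeR without IL-27 replicate 10 (adjusted p = 0.00583), and over all alternatives its edgeR and DESeq2 adjusted p ran from 0.00507 to 0.682. In these nuclei 9.02% of all genes had an unadjusted edgeR p under 0.05. Trpm1 was at 99.68, 133.3 and 85.08 CPM in saline and at 61.34, 61.24 and 86.57 CPM in IL-27 (log2 fold change -0.59, SE 0.18, edgeR adjusted p = 0.357). Here IL-27 replicate 10 overlapped with saline replicate 6, and without it the edgeR adjusted p was 0.0411, whereas the highest adjusted p of any alternative was 0.791.

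In the Müller sums, too, some summed marker lists of other cell types did not overlap between treatments, counted without a test. The 12 OFF bipolar markers summed to 205.0 to 286.8 CPM in saline and 117.7 to 192.6 CPM in IL-27, although 5 of the 12 were higher in saline. Higher in saline were also the 8 amacrine markers, at 258.5 to 277.8 and 134.1 to 208.4 CPM, and the 8 ganglion cell markers, at 114.1 to 124.0 and 80.25 to 104.8 CPM, with 6 of the 8 higher in saline in each list. Higher in IL-27 were the 9 cone markers, at 520.4 to 567.0 CPM in saline and 630.1 to 750.1 CPM in IL-27, the 12 ON cone bipolar markers, at 2739 to 2806 and 3146 to 3303 CPM, and the 7 endothelial markers, at 1572 to 1833 and 1841 to 2009 CPM, where 2 of the 9, 5 of the 12 and 2 of the 7 were higher in saline. The 8 rod bipolar markers overlapped, at 231.4 to 294.1 CPM in saline and 232.5 to 274.8 CPM in IL-27. The 6 pigmented epithelium markers overlapped too, with a mean of 46.78 CPM in saline and 8.192 CPM in IL-27. Of these, 6 of 6 were higher in saline, and saline replicate 6 stood apart at 114.5 CPM. Every marker of the lists named here had UMIs in the Müller sums. Their part in the Gnao1 and Trpm1 values was not tested. The paper reports a Müller glia cluster that was nearly absent after IL-27, and its part in these sums was not tested either.

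The other 3 pairs with an unadjusted p under 0.05 were Rgs7 in cones and Trpm1 and Rgs7 in microglia. Rgs7 in cones was at 984.7, 986.0 and 827.1 CPM in saline and at 1003, 1207 and 1209 CPM in IL-27 (log2 fold change 0.30, SE 0.13, edgeR adjusted p = 0.9996), without overlap. In cone sums the 7 pericyte markers were at 5.85 to 8.527 CPM in saline and 9.423 to 11.07 CPM in IL-27. Of these, 6 had UMIs and 2 were higher in saline. The 9 cone markers overlapped and were lowest in IL-27 replicates 5 and 10, at 12030 and 12150 CPM. The part of these markers in the Rgs7 values was not tested. In microglia Trpm1 and Rgs7 rested on 245 and 126 UMIs in all and overlapped between the groups, with log2 fold changes of 0.74 and 0.87 and an edgeR adjusted p of 1 each. Lrit3 in cones, where it was highest, was at 224.9, 227.0 and 213.2 CPM in saline and at 234.1, 211.1 and 220.6 CPM in IL-27, with a log2 fold change of 0.01 (SE 0.12).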

How the data were processed

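Retinal nuclei of 6 libraries were measured, 3 saline and 3 IL-27, with groups taken from the labels. The authors counted UMIs per gene and barcode with Cell Ranger (10x Genomics), and deposited these counts for every called barcode without normalization. Submitters' processing notes name Cell Ranger 9.0.1 and Seurat 5.2.1, and the matrix headers name 8.0.1. The genome build is not given in the sources used here, and positions are from GENCODE M21 (GRCm38), which held 99.6% of the gene IDs.

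Nuclei with over 500 UMIs, at least 200 genes and under 5% mitochondrial UMIs were kept. Those with the highest Scrublet doublet scores (scanpy 1.11.5) were then removed. Their number was set for each library beforehand, from an expected rate of 8% lowered by the share of doublets expected within a cluster. Louvain clusters (igraph 0.11.9, 2000 variable genes, 25 components, resolution 0.25, and 0.5 for bipolar nuclei) were formed without the members and partners and named where at least 3 markers were detected, so the names differ from the authors' atlas-based annotation. UMIs were then added up by library and type. As outliers, 3348 nuclei were dropped from the sums because their log2 total lay more than 2 median absolute deviations off the median. Rod bipolar sums held 1754534 to 2483708 UMIs.

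Sums were tested per type with edgeR 4.0.16 (quasi-likelihood, TMM, filterByExpr at 10 counts, Benjamini-Hochberg, threshold 0.05) in R 4.3.3. Intervals are 95%. The interaction was fitted on 12 sums with the library as a block. The fits were tested on simulated data, where 200 genes were changed 2-fold, and 97.5%, 98.5%, 98.0% and 82.5% were recovered in rod bipolar, ON cone bipolar, OFF bipolar and interaction fits, with 13, 3, 12 and 14 false calls. The changed genes were drawn only from those with many UMIs. The same spread between libraries was set for every gene and not estimated from the data. Changes smaller than 2-fold were not simulated, so these shares do not give the power for the members. Alternatives were DESeq2 1.42.0, other scalings and filters, all nuclei, no doublet removal, finer clustering, sex as a covariate and each library left out.

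The members and all gene lists were chosen with earlier results of these data known. Named one by one were the 10 members, Gng13, Gnb5, every partner with an unadjusted p under 0.05 in rod or ON cone bipolar nuclei, the 5 genes most like the cascade, and called genes. Elfn2, Tpbg, Rgs9bp, Lrit2 and Elfn1 were added after their values were seen. A partner gene is not reported here by name.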

Additional observations from a re-analysis of the deposited data

How the results depend on the processing

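No member passed the threshold in rod bipolar, ON cone bipolar or OFF bipolar nuclei under any alternative. For the interaction no member passed under the alternatives run, which were no filter, the filter at 30 counts, all nuclei summed and each library left out. The largest fold changes over these alternatives were 1.19-fold, 1.14-fold and 1.25-fold in the 3 types. No paired analysis was possible because, by the paper's design, a mouse received either saline or IL-27, in 1 eye only. In the other cell types 1 member (Gnao1 in Müller glia) was called by DESeq2 and 1 without a filter on low counts, and 0 to 2 with a library left out. Without the filter 1 partner was called in ganglion cells. Of all genes, edgeR without the filter called 252 of 24008 in Müller glia and 18 of 24083 in ganglion cells. Without IL-27 replicate 10, where 2 members were called in Müller glia, edgeR called 454 of 14246 genes there. The higher bipolar clustering resolution does not touch the other cell types.

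Signs near 0 changed. With all nuclei summed, the log2 fold change in ON cone bipolar nuclei was -0.0204 for Trpm1 and 0.0028 for Gng13, and that of Gng13 in rod bipolar nuclei was 0.0371. Without doublet removal that of Rgs11 in ON cone bipolar nuclei was -0.0027. Gng13 in rod bipolar nuclei was at 0.0118 with finer clustering and at 0.0170 with the mixed sub-clusters kept, and Pcp2 in ON cone bipolar nuclei was at 0.0387 with the Igfn1 cluster added. The last 2 alternatives were chosen after seeing the data. The cause was not tested.

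With each library left out, log2 fold changes in rod bipolar nuclei ran from -0.0744 to 0.0537 for Grm6, -0.0387 to 0.0609 for Gpr179, -0.0635 to 0.2542 for Nyx, -0.0430 to 0.0757 for Rgs7, -0.0418 to 0.1400 for Rgs11, -0.1091 to 0.1290 for Pcp2, -0.2274 to 0.1585 for Gng13 and -0.0009 to 0.2213 for Gnb5. In ON cone bipolar nuclei they ran from -0.1673 to 0.0400 for Grm6, -0.0291 to 0.0726 for Trpm1, -0.0035 to 0.0698 for Gpr179, -0.1220 to 0.1908 for Nyx, -0.0117 to 0.1009 for Rgs11, -0.1801 to 0.1015 for Pcp2, -0.2950 to 0.0911 for Gng13 and -0.1305 to 0.2212 for Gnb5. In OFF bipolar nuclei 15 of 90 estimates, in 7 members, changed sign under other settings (from -0.2973 to 0.1586) and 15 of 54, in 8 members, with a library left out (-0.2359 to 0.3196). For the interaction these were 2 of 27 (-0.0976 to 0.1436) and 7 of 54 (-0.1382 to 0.3119). The difference in the rod bipolar share ran from -1.69 to 0.93 percentage points.

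Without a filter on low counts, edgeR called 22, 20 and 7 genes in rod bipolar, ON cone bipolar and OFF bipolar nuclei against 0, 0 and 1 with it. In Müller glia 4 genes were called by edgeR, 87 by DESeq2, 252 without the filter and 454 without IL-27 replicate 10. The cause was not tested. Of 30 levels of the members in the 3 bipolar types, 30 moved by less than their SD with members kept in the clustering, and 27 without doublet removal and 27 with thinned nuclei. Grm6 in horizontal cells, at 4.86 CPM, was at 14.5 CPM without doublet removal. Lrit3 was under the filter in bipolar nuclei, with 6 UMIs over the rod bipolar sums, where 3 UMIs correspond to 0.230 CPM.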
